A study of Mus musculus with 18 samples.

Results

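Chemokine receptors are G protein-coupled receptors that steer leukocytes along gradients of small secreted proteins, the chemokines. The 9 receptor genes described here are Ccr1, Ccr2, Ccr6, Ccr7, Ccr8, Ccr9, Cx3cr1, Cxcr4 and Cxcr6, chosen by name from the 54232 genes of the count table by matching each Ensembl identifier to its mouse symbol. All 9 passed the filter on low counts. In dendritic cells (DCs) these receptors are known to govern entry into tissues from blood, position within the gut wall and departure through lymph. CCR7, which binds CCL19 and CCL21, is the receptor that directs maturing DCs from tissue into draining lymph nodes. CCR9 binds CCL25 of the small intestine, CCR6 binds CCL20 made by the epithelium over lymphoid follicles, and CCR2 and CX3CR1 are receptors of monocytes and the cells that derive from them.

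The data were RNA-seq libraries of DCs from C57BL/6J mice whose genotype is given as CD11a KO in every group, and no wild-type library was analysed here. Itgal encodes CD11a, which pairs with CD18 to form the integrin LFA-1. The 6 groups were CD11b+, CD103+ and double-positive DCs, the last carrying both markers, each from the small intestinal lamina propria (LP) and from the intestinal lymph nodes (LN), with 3 libraries per group. Age, sex and whether animals were at steady state or infected with Salmonella are not given per library, and no label says that replicates came from separate animals, so p-values measure the spread between these libraries. The DC gate given for lamina propria was CD45+ CD64- MHCIIhigh CD11c+. For migratory DCs the protocol shared by all libraries describes thoracic duct lymph of mice without mesenteric nodes, and how cells labelled as lymph node were obtained is not given. The groups allow each receptor to be compared between the tissues within a subset and between subsets within a tissue.

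The 18 libraries held between 23574292 and 46901985 counts. Levels are given as CPM, the count scaled to library size, and Itgal was read at 6.45 to 26.6 CPM in all of them. In lamina propria the 9 libraries read 50.04 to 74.4 CPM of Ddx3y, a gene of the Y chromosome, with Xist at 0.286 CPM at most, and the 9 lymph node libraries carried Xist (15.4 to 89.1 CPM), 2 of them, CD11b+ replicate 3 and double-positive replicate 3, together with Ddx3y. Tissue therefore cannot be told apart from the sex of the animals. In lamina propria markers of the labelled subsets were separated. Xcr1 was at 1399.8 CPM in LP CD103+ DCs against 13.4 in LP CD11b+ DCs, and Sirpa was the reverse (4.63 against 519 CPM). In lymph node Xcr1 was less so, averaging 97.6 CPM in CD103+, 75.5 in double-positive and 46.2 in CD11b+ DCs. Sirpa stayed apart there, at 14.9, 158 and 696 CPM in the same order. Tlr3, like Xcr1 high in LP CD103+ DCs (958 CPM against 18.3 in LP CD11b+), was reversed in lymph node, at 8.65, 18.6 and 22.2 CPM. Of the 7 listed markers of this type, 5 were higher and 1 lower in LN CD103+ than in LN CD11b+ DCs. That count uses the call rule given below, by which 25.9% of all genes tested differed there. Itgae, which encodes CD103, was lower in lymph node in every subset, at 35.4 and 46.1 CPM in the LN CD103+ and LN double-positive groups. Itgam, which encodes CD11b, fell in double-positive DCs from 68.5 to 5.16 CPM and in CD11b+ DCs from 61.3 to 20.8 CPM. The 7 general DC markers summed to 64694 to 78889 CPM in lamina propria and 19671 to 47573 CPM in lymph node. Most of this was Cd74 and H2-Ab1, the latter at 27792 CPM in LP CD103+ and 3582 in LN CD103+ DCs. Flt3 went the other way in that subset, from 624 to 1032 CPM.

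Lymph node libraries also carried more RNA of T cell and ILC markers. The 15 T cell markers summed to 10.7 to 68.2 CPM in lamina propria and 722 to 1495 CPM in lymph node libraries, with the defining Cd3d at 29.0 CPM in LN CD11b+, 49.3 in LN CD103+ and 34.8 in LN double-positive DCs. The 8 markers of innate lymphoid cells (ILCs) summed to 3.63 to 54.0 CPM in lamina propria and 188 to 650 CPM in lymph node, and were highest in LN CD11b+ libraries. Single genes made much of these sums. In LN CD103+ and LN double-positive DCs Tcf7, a T cell marker, averaged 500 and 591 CPM, and Il7r, an ILC marker, 176 and 273. Summed over 10 genes, B cell markers were lower in LN CD103+ (274 to 299 CPM) than in LP CD103+ libraries (517 to 622). Ighm alone averaged 237 and 517 CPM in these groups. By the call rule given below, 7, 5 and 6 of the 9 tested were higher in lymph node in CD11b+, CD103+ and double-positive DCs. Lower were 0, 2 and 0 of them, and the shares of all genes are given with that rule. The 8 markers of plasmacytoid DCs (pDCs) summed to 133 to 337 CPM in lamina propria and 364 to 461 CPM in lymph node. The 12 macrophage markers ran from 830 to 18235 CPM in lamina propria and from 134 to 4603 CPM in lymph node, and were highest in LP CD11b+ DCs. T cells, ILCs and macrophages carry several of the 9 receptors themselves. The part of these cells, of B cells and of pDCs in the differences below was not tested. In sorted bulk RNA, fewer cells that carry a receptor and less of its RNA per cell cannot be told apart.

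**Figure D1:**
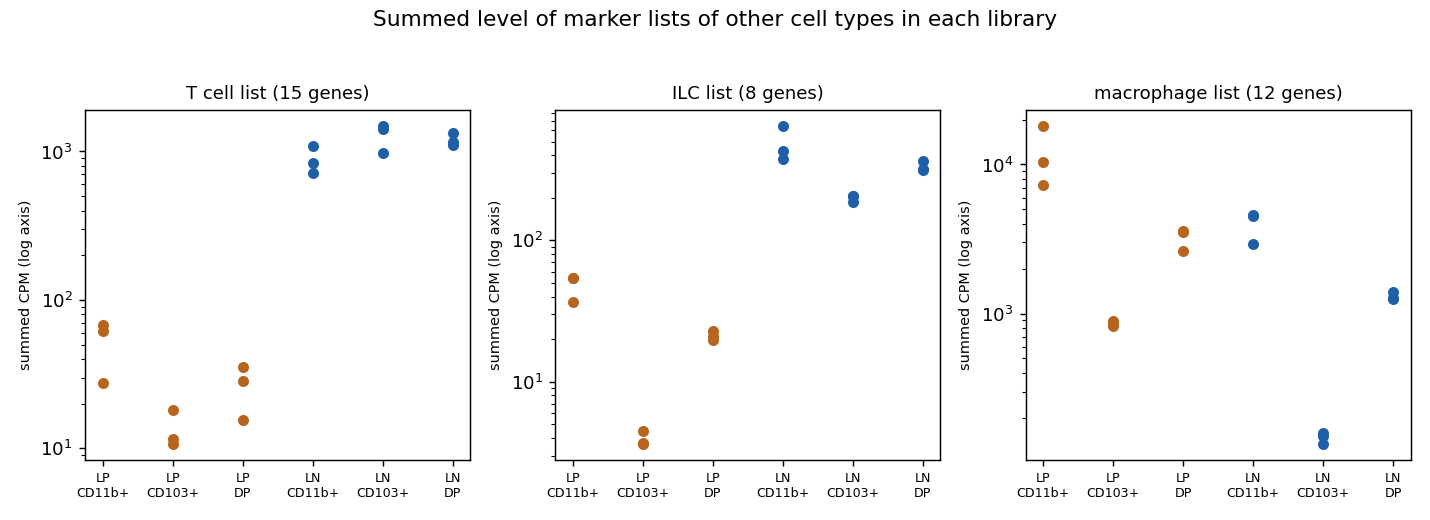
Summed CPM (log axis) of the T cell, ILC and macrophage marker lists in each library of the 6 groups, LP in brown and LN in blue, with 3 points per group. The T cell and ILC sums of all LN libraries lie above those of all LP libraries, while the macrophage sum is highest in LP CD11b+ DCs.

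Of the 9 genes, 6 lie on chromosome 9 (Ccr1, Ccr2, Ccr8, Ccr9, Cx3cr1 and Cxcr6), and Ccr7, Ccr6 and Cxcr4 lie on chromosomes 11, 17 and 1. Ccr1, Ccr2, Ccr9 and Cxcr6 form a cluster there between 123678439 and 124113557 of GRCm38, and Ccr8 and Cx3cr1 lie side by side between 119901616 and 120094906. Neighbours in the cluster differed in direction, Ccr1 being lower in lymph node and Cxcr6 higher. The promoters of Ccr1, which had the steepest fall, and of Ccr6, Cxcr6 and Ccr8, which rose together, are given from RefSeq (GRCm38.p6) as 300 bases, most of them before the start of transcription, on the strand of the gene. Capitals mark matches, on either strand, to the NF-kB site, to TGANTCA (AP-1), GAGGAA (PU.1), CACGTG (E-box) and AGGTCA (nuclear receptors).

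Ccr1, chr9:123968643-123968942, minus strand: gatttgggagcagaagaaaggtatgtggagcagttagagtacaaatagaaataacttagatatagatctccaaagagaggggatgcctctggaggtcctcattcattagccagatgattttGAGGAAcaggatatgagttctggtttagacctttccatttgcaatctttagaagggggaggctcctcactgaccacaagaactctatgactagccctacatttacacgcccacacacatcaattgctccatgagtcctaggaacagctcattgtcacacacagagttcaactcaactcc
Ccr6, upstream start, chr17:8235793-8236092, plus strand: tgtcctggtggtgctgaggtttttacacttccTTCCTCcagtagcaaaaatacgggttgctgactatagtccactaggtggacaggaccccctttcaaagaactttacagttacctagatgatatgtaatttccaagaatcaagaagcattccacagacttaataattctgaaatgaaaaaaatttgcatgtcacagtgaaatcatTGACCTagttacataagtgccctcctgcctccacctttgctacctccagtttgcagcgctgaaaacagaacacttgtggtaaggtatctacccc
Ccr6, downstream start, chr17:8242276-8242575, plus strand: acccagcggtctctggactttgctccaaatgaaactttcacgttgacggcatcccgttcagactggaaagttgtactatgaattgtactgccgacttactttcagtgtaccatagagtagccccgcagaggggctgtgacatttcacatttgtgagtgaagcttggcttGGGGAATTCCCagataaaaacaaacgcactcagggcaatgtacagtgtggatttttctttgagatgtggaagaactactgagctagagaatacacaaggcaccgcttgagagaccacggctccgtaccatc
Cxcr6, chr9:123806227-123806526, plus strand: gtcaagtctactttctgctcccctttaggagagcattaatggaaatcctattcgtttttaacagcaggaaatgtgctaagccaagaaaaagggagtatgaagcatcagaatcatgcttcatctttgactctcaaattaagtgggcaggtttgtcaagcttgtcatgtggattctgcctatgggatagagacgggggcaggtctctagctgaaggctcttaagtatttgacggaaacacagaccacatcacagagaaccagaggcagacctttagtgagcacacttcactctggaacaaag
Ccr8, chr9:120091883-120092182, plus strand: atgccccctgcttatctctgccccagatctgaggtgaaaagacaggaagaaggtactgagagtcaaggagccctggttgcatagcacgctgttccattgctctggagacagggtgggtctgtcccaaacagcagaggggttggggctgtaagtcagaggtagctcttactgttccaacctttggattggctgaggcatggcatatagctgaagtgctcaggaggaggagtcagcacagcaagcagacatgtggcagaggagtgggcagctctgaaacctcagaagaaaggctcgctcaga

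The downstream promoter of Ccr6 held an NF-kB match that can be read in 2 registers that overlap, found in 4.51% of the 32851 promoters of that length. The upstream one held a GAGGAA match (28.3% of promoters) and an AGGTCA match (16.3%), and Ccr1 held GAGGAA 129 bases before its start. Neither Cxcr6 nor Ccr8 matched any of the 5 motifs in this window, and nor did Ccr2, Ccr9, Cx3cr1 or Cxcr4, whose promoters are not printed. TGANTCA and CACGTG, present in 7.81% and 7.15% of promoters, were in none of those searched. Ccr7 had no entry.

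A receptor was called changed when the adjusted p of edgeR's quasi-likelihood test (Benjamini-Hochberg over the 17074 genes tested) was under 0.01 and the fold change over 2. Of the 9 receptors, 4 were called higher and 3 lower in LN than in LP CD11b+ DCs, where 10.3% of all genes tested were called higher and 4.93% lower. In CD103+ DCs 5 were higher and 3 lower, against 19.8% and 15.1% of all genes. Among double-positive DCs 6 were higher and 1 lower, against 18.6% and 13.6%. Ccr6, Ccr7, Ccr8 and Cxcr6 were higher in lymph node in all 3 subsets and Ccr1 was lower in all 3, Ccr2 was called in opposite directions, and Cx3cr1 was called in none. The LN and LP libraries of a subset did not overlap for any of the 22 calls. They overlapped for each of the 5 differences that were not called. How many of all genes tested show no overlap was not counted, so this is no support apart from the calls.

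**Figure D2:**
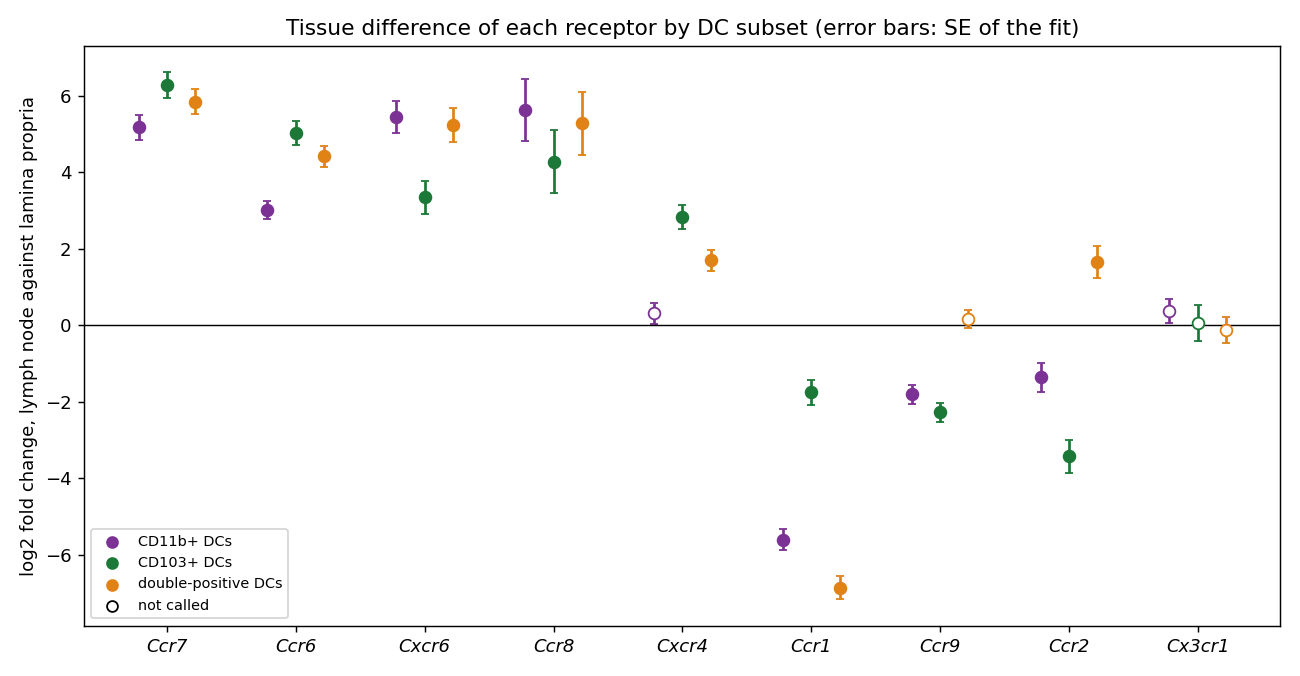
Log2 fold change of each receptor, lymph node against lamina propria, in CD11b+ (purple), CD103+ (green) and double-positive DCs (orange), with the SE of the fit. Filled points were called and open points were not, and Ccr7, Ccr6, Cxcr6 and Ccr8 lie above 0 and Ccr1 below 0 in all 3 subsets.

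Ccr7 rose in lymph node in each subset. LP CD11b+ libraries had 40.7, 25.4 and 64.0 CPM, and LN CD11b+ libraries 1024, 1811 and 1879.7. For CD103+ DCs the values were 171, 117 and 152 CPM in lamina propria and 10129, 11902 and 11978 in lymph node. Double-positive DCs went from 129, 147 and 194 CPM to 7902, 9865 and 9307. Every lymph node library thus lay above every lamina propria library, the closest being 1024 CPM in LN CD11b+ replicate 1 and 194 CPM in LP double-positive replicate 3. The log2 fold change was 5.18 ± 0.33 (SE, adjusted p = 4.9e-09) in CD11b+, 6.27 ± 0.34 (9.5e-11) among CD103+ and 5.85 ± 0.33 (2.4e-10) among double-positive DCs. The F test of a difference between these 3 tissue effects missed the threshold (adjusted p = 0.076).

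Subsets differed in Ccr7 within each tissue. CD11b+ DCs had the least, by 3.37-fold against CD103+ (adjusted p = 1e-04) and 3.61-fold against double-positive DCs (3e-04) in lamina propria, and by 7.21-fold (3.5e-07) and 5.74-fold (2.3e-06) in lymph node. The other pair was not called different in either tissue, although the lymph node libraries of CD103+ and double-positive DCs did not overlap. Among genes with a mean of at least 5 CPM, the patterns most like that of Ccr7 over the 18 libraries were those of Nudt17 (Pearson's r = 0.998), Cacnb3 (0.997), which encodes a calcium channel subunit, and Tnfrsf4 (0.994), which encodes the costimulatory receptor OX40. Such correlations describe libraries that share the same 6 groups.

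Ccr6, Cxcr6 and Ccr8 rose in lymph node, where their means had one order of subsets, CD11b+ above double-positive above CD103+ DCs. Ccr6 read 18.1, 8.02 and 16.5 CPM in LP CD11b+ libraries and 110.4, 126 and 109 in LN CD11b+ libraries. It was close to absent from LP CD103+ DCs, at 0.637, 0.323 and 0.449 CPM, and reached 17.4, 15.1 and 11.9 in LN CD103+ DCs. Double-positive libraries had 2.31, 2.203 and 1.68 CPM in lamina propria and 45.0, 45.4 and 42.2 in lymph node. Within a subset the tissues did not overlap, but LP CD11b+ replicate 1 (18.1) exceeded each LN CD103+ library. The rise was 8.10-fold in CD11b+ (log2 3.02 ± 0.24, SE, adjusted p = 7.3e-08), 32.5-fold in CD103+ (5.02 ± 0.31, 5.2e-10) and 21.4-fold in double-positive DCs (4.42 ± 0.27, 5.5e-10). It differed between subsets (F test, adjusted p = 0.00082), being larger in CD103+ than in CD11b+ DCs by 2.00 ± 0.39 on the log2 scale (0.00063). The excess in double-positive over CD11b+ DCs, 1.402 ± 0.34 (0.0048), was lost when any of 8 of the 12 libraries was left out (lowest 1.19, adjusted p = 0.015, without LP CD11b+ replicate 1), without the 2 libraries that carried both Xist and Ddx3y (0.021) and under total counts (0.023).

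All 6 pairs of subsets were called different for Ccr6 within a tissue. Against LN CD11b+ DCs its log2 difference was -2.96 ± 0.24 (adjusted p = 2.3e-08) in LN CD103+ and -1.38 ± 0.22 (9.5e-05) in LN double-positive DCs. Against LP CD11b+ DCs it was -4.96 ± 0.31 (2.4e-09) in LP CD103+ and -2.78 ± 0.26 (3.1e-06) in LP double-positive DCs. The double-positive subset exceeded the CD103+ subset by 4.53-fold in lamina propria (7.6e-05) and 2.98-fold in lymph node (8.5e-05). Its nearest patterns were St8sia6 (r = 0.986), which encodes a sialyltransferase, Lysmd2 (0.985) and Espn (0.982), which encodes the actin-bundling protein espin.

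Cxcr6, the receptor of the transmembrane chemokine CXCL16, was low in all lamina propria libraries. LP CD11b+ libraries read 7.04, 2.27 and 3.03 CPM, LP CD103+ libraries 1.38, 1.398 and 0.979, and LP double-positive libraries 1.94, 1.15 and 0.535. Lymph node libraries reached 141, 227 and 167 CPM in the CD11b+ subset, 12.4, 18.6 and 7.85 in the CD103+ subset and 44.8, 46.7 and 44.5 in the double-positive subset. The lymph node groups were apart from each other and from each lamina propria group. The log2 rise was 5.44 ± 0.42 (SE, adjusted p = 5.1e-08), 3.34 ± 0.43 (3.6e-06) and 5.23 ± 0.45 (3.3e-08) in the 3 subsets in that order. LN CD103+ DCs lay 13.8-fold (3.2e-07) and LN double-positive DCs 3.93-fold (0.00022) below LN CD11b+ DCs, and 3.50-fold apart from each other (0.0013). The F test of the tissue effects missed the threshold (adjusted p = 0.015), and passed it under total counts (0.0068), without a filter on low counts (0.0032) and with DESeq2 (0.0099). LP CD11b+ replicate 1 was the highest of its group, and without it the difference between LP CD103+ and LP CD11b+ DCs, 3.22-fold (adjusted p = 0.0063), was no longer called (log2 -1.06, 0.062), nor was it without any 1 of the LP CD103+ libraries (adjusted p from 0.018 to 0.027). Leaving out LP CD11b+ replicate 1 also raised the log2 rise in CD11b+ DCs to 6.06. Arntl, a gene of the circadian clock, Klrb1c, an NK cell receptor, and Ccdc184 were most like it (r = 0.985, 0.980 and 0.979).

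Ccr8, whose ligands are CCL1 and CCL8, was at the limit of detection in lamina propria. Its counts were 0, 4 and 7 in LP CD11b+, 1, 8 and 0 in LP CD103+ and 1, 7 and 0 in LP double-positive libraries. The LN CD11b+ libraries had 159, 260 and 183 counts, the LN CD103+ libraries 49, 42 and 29 and the LN double-positive libraries 74, 136 and 80. No lamina propria library reached the level of any lymph node library. The lymph node means were 6.46 ± 1.83 (SD, n = 3), 1.69 ± 0.39 and 3.81 ± 0.93 CPM, and the fitted rises of 5.64 ± 0.81 (SE, adjusted p = 4.1e-05), 4.27 ± 0.82 (0.00024) and 5.28 ± 0.83 (3.7e-05) on the log2 scale rest on 11, 9 and 8 counts in the lamina propria groups. They were called without any 1 library, but their size was not fixed, reaching 6.39 without LP CD11b+ replicate 3, 6.16 without LP CD103+ replicate 2 and 7.40 without LP double-positive replicate 2. No pair of subsets was called different. Cep63 (r = 0.976), Cd160 (0.968) and Il2rb (0.965), the last 2 encoding surface receptors of NK and T cells, had the nearest patterns. Among the receptors themselves, over the 18 libraries, Ccr8 and Cxcr6 (r = 0.920) and Ccr6 and Cxcr6 (0.917) were most alike, and Ccr1 and Ccr7 most opposed (-0.771).

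The summed ILC markers had the same order in lymph node, with 376 to 649.7 CPM in CD11b+, 314 to 367 in double-positive and 188 to 207 in CD103+ libraries. This order was not particular to ILCs. By median, summed B cell markers had 949, 695 and 277 CPM in LN CD11b+, LN double-positive and LN CD103+ libraries. Macrophage markers had 4536, 1280 and 151 CPM, and monocyte markers 628, 84.8 and 81.0 CPM. Of single ILC genes, picked after their values were seen, Rora averaged 50.2 CPM in LN CD11b+, 16.9 in LN double-positive and 5.77 in LN CD103+ DCs. Il7r had another order, at 253, 273 and 176 CPM. Of the 8 ILC markers 6, 6 and 7 were called higher in lymph node in the CD11b+, CD103+ and double-positive subsets, and 1, 0 and 1 lower, and their part in the levels of Ccr6, Cxcr6 and Ccr8 was not tested. The T cell list had another order, with 14 of 15 markers called higher in CD11b+ DCs and all 15 in the others, and its summed level had a median of 833 CPM in LN CD11b+ and 1419.9 CPM in LN CD103+ libraries.

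Cxcr4, the receptor of CXCL12, rose in lymph node in 2 of the subsets. LP CD103+ libraries had 1.84, 1.29 and 2.69 CPM and LN CD103+ libraries 12.2, 12.99 and 15.6. Double-positive DCs had 12.7, 11.9 and 7.28 CPM in lamina propria and 27.9, 45.3 and 30.2 in lymph node. The CD11b+ values overlapped, at 28.3, 22.2 and 31.1 CPM against 24.7, 30.7 and 46.4. The log2 change was 2.84 ± 0.31 (SE, adjusted p = 6.3e-07) among CD103+ and 1.70 ± 0.28 (7.1e-05) among double-positive DCs, and 0.32 ± 0.27 (0.39) in CD11b+ DCs. These tissue effects differed (F test, adjusted p = 0.00037), that of CD103+ exceeding that of CD11b+ DCs by 2.52 ± 0.41 (0.00012). That of double-positive DCs was not called different from that of CD11b+ (1.38 ± 0.39, adjusted p = 0.014) or CD103+ DCs (-1.14 ± 0.41, 0.06).

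In lamina propria the subsets were spread over a 14.3-fold range of Cxcr4, from CD11b+ down to CD103+ DCs (adjusted p = 6.5e-08). Lymph node CD11b+ and double-positive DCs were not called different, with CD103+ DCs 2.50-fold below CD11b+ (0.00079) and 2.54-fold below double-positive DCs (0.002). The last call was lost without any of 3 of the 6 libraries (adjusted p up to 0.012), and that between LP double-positive and LP CD11b+ DCs, -1.36 ± 0.28 on the log2 scale (0.0036), without any of 4 of 6 (up to 0.024). The nearest patterns were those of Apobec1 (r = 0.974), an RNA-editing cytidine deaminase, Gpm6b (0.959) and the Toll-like receptor gene Tlr1 (0.950).

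Ccr1, the receptor of CCL3 and CCL5, was lower in lymph node in every subset, by the largest fold of any receptor in double-positive DCs. LP CD11b+ libraries had 471, 357 and 523 CPM and LN CD11b+ libraries 12.2, 6.91 and 8.59. LP double-positive libraries had 725, 602 and 663 CPM, and LN double-positive libraries 6.60, 5.10 and 5.37. In CD103+ DCs it was low in both tissues, at 6.30, 6.65 and 5.26 CPM against 2.74, 1.98 and 0.657. Lamina propria CD11b+ and double-positive DCs thus stood apart from the 4 other groups, which reached 12.2 CPM at most. Ccr1 was 48.6-fold lower in LN than in LP CD11b+ DCs (log2 -5.60 ± 0.28, SE, adjusted p = 4.5e-10), 3.38-fold lower in CD103+ (-1.76 ± 0.32, 0.00013) and 116-fold lower in double-positive DCs (-6.86 ± 0.30, 1.2e-11).

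The fall of Ccr1 differed between subsets (F test, adjusted p = 4.2e-07). It was smaller in CD103+ than in CD11b+ DCs by 3.85 ± 0.42 on the log2 scale (2e-06) and than in double-positive DCs by a difference of -5.11 ± 0.44 (double-positive minus CD103+, 4e-07). In lamina propria CD103+ DCs were 73.7-fold below CD11b+ (7e-11) and 109-fold below double-positive DCs (4e-11), while the last 2 were not called different. In lymph node, at low levels, CD103+ DCs were 5.12-fold below CD11b+ (6.4e-06) and 3.15-fold below double-positive DCs (0.0011). Ccr1 was most like G6pdx (r = 0.983) and Mdh2 (0.981), both enzymes of central metabolism, and Il1r2 (0.980), the decoy receptor of interleukin-1. Summed macrophage markers had a median of 10419 CPM in LP CD11b+ and 3534 CPM in LP double-positive DCs, and of the 11 tested 8 were called lower and 1, Adgre1, higher in the latter. Mean Ccr1 was 450.4 and 663 CPM in these groups, and the part of macrophages in Ccr1 was not tested.

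**Figure D3:**
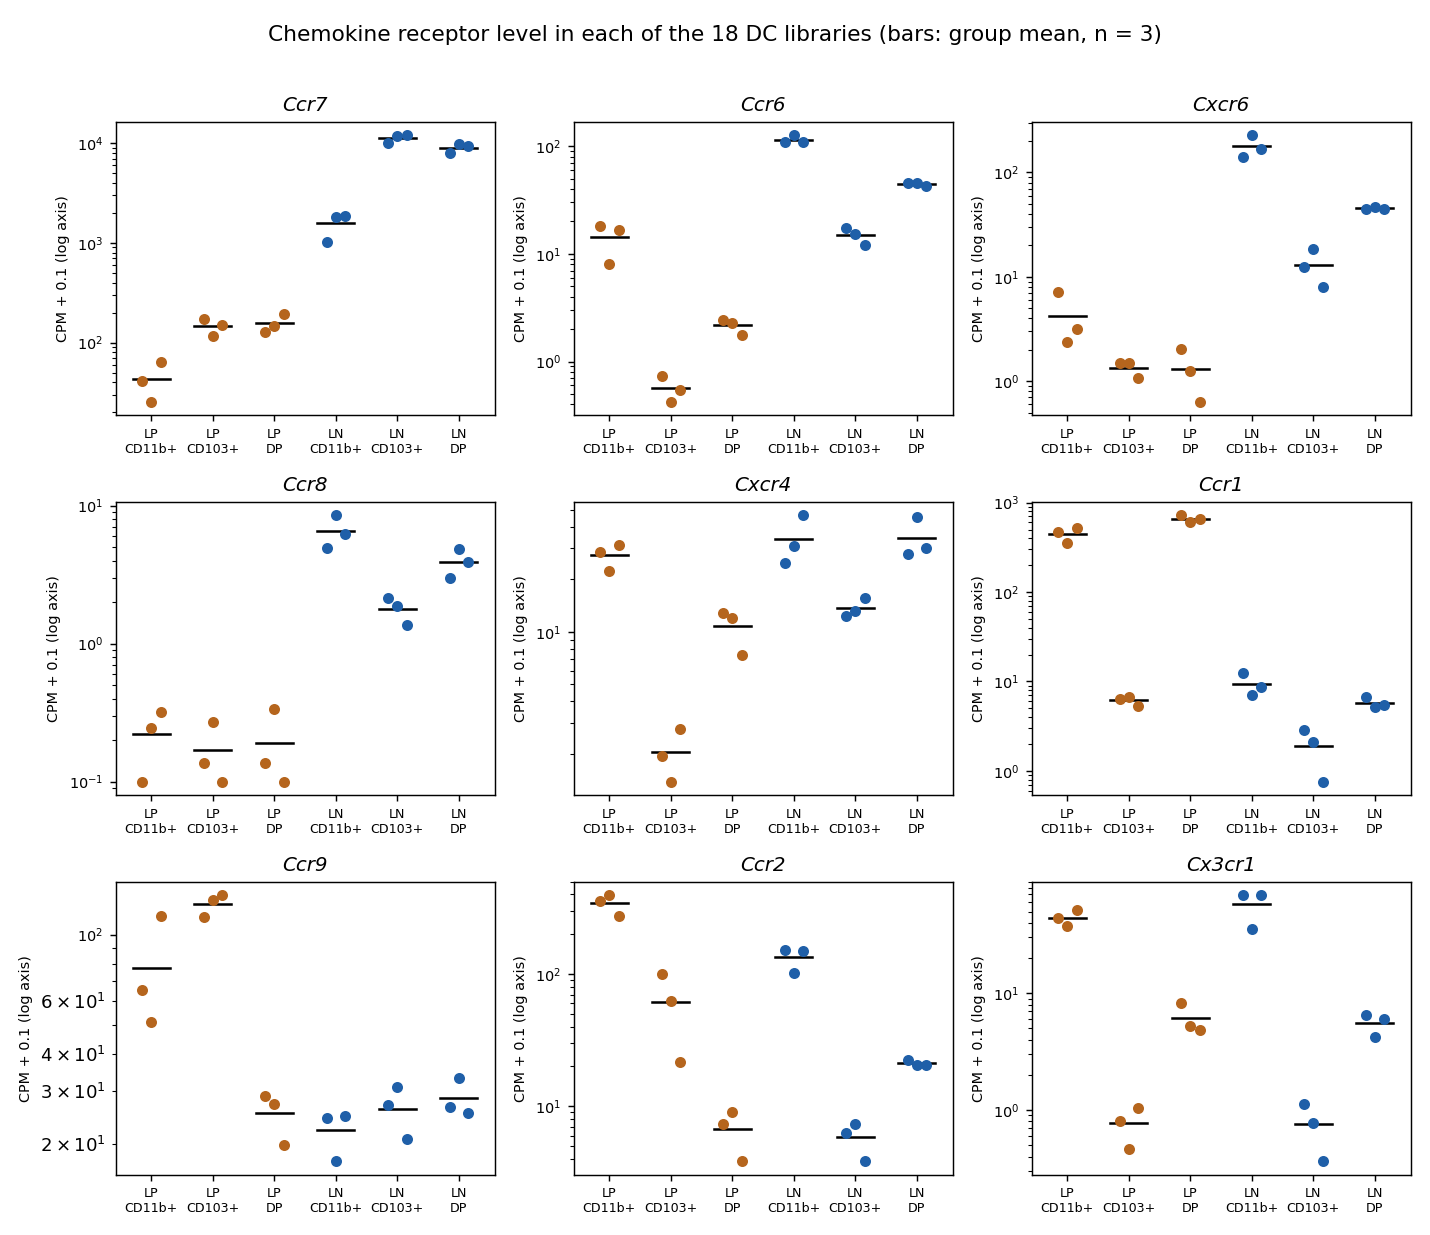
CPM (plus 0.1, log axis) of each receptor in each of the 18 libraries, LP in brown and LN in blue, with bars at the mean of the 3 libraries of a group. Ccr1 is at 357 to 725 CPM in LP CD11b+ and LP double-positive libraries and at 12.2 CPM or less elsewhere, and Ccr7 is at 1024 CPM or more in every LN library.

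Ccr9, the gut-homing receptor, was highest in LP CD103+ DCs and lay between 17.4 and 33.0 CPM in all lymph node libraries. LP CD103+ libraries had 114, 130.2 and 135 CPM, and LP CD11b+ libraries 65.2, 51.1 and 115. LP double-positive libraries had 28.9, 27.1 and 19.8 CPM. LN CD11b+ libraries had 24.3, 17.4 and 24.7 CPM, LN CD103+ libraries 27.0, 30.8 and 20.6 and LN double-positive libraries 26.6, 33.0 and 25.3. Those 9 libraries and the LP double-positive libraries overlapped. The log2 change was -1.80 ± 0.25 (SE, adjusted p = 2.8e-05) in CD11b+ and -2.27 ± 0.25 (6.7e-07) in CD103+ DCs, against 0.16 ± 0.25 (0.58) in double-positive DCs.

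The tissue effects on Ccr9 differed (F test, adjusted p = 6.1e-05), that of double-positive DCs lying above that of CD11b+ by 1.97 ± 0.35 (0.00043) and above that of CD103+ DCs by 2.44 ± 0.35 (8.4e-05). In lamina propria double-positive DCs were 5.01-fold below CD103+ (1.6e-06) and 3.06-fold below CD11b+ DCs (0.00031), and CD103+ against CD11b+ DCs was not called (log2 0.71 ± 0.24, adjusted p = 0.028), though it was without LP CD11b+ replicate 3, the highest of its group (1.12, 0.00044). In lymph node no pair was called. Its nearest patterns, Ssr3 (r = 0.914), Dapk2 (0.911) and Slc7a8 (0.888), were less close than those of the other receptors. Counts of Ccr9 are uncertain in another way, since 21.5% of its annotated exon bases overlap other genes, among them the antisense Slc6a20a, from which reads cannot be told apart if counting was without strand.

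Ccr2 went down in lymph node in 2 subsets and up in the other. LP CD11b+ libraries had 359, 397 and 277 CPM and LN CD11b+ libraries 152, 102 and 149. LP CD103+ libraries were widely spread, at 100.03, 63.0 and 21.6 CPM, and LN CD103+ libraries had 6.18, 7.25 and 3.73. Double-positive libraries had 7.23, 8.91 and 3.78 CPM in lamina propria and 22.3, 20.5 and 20.3 in lymph node. Each of the 3 changes was without overlap. The log2 change was -1.36 ± 0.38 (SE, adjusted p = 0.0094) in CD11b+, -3.43 ± 0.44 (3.5e-06) among CD103+ and 1.66 ± 0.42 (0.0027) among double-positive DCs. The call in CD11b+ DCs was lost on leaving out any 1 of its 6 libraries (adjusted p between 0.011 and 0.049), without the 2 lymph node libraries that carried both Xist and Ddx3y (0.029) and under total counts (0.016), and that in double-positive DCs without LP double-positive replicate 3 (log2 1.38, 0.017).

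The tissue effects on Ccr2 differed (F test, adjusted p = 1.5e-05). That of double-positive DCs exceeded that of CD11b+ DCs by 3.02 ± 0.57 (7e-04) and that of CD103+ DCs by 5.09 ± 0.61 (1.3e-05), whereas the difference between CD103+ and CD11b+ DCs, -2.07 ± 0.56 (0.0079), was lost on leaving out any of 9 of 12 libraries (adjusted p up to 0.027) and without the 2 libraries named above (0.024). CD11b+ DCs had the most Ccr2 in both tissues, 5.58-fold above CD103+ (8.8e-05) and 51.7-fold above double-positive DCs (1.1e-06) in lamina propria and 23.4-fold (2.8e-07) and 6.39-fold (4.6e-05) in lymph node. The order of CD103+ and double-positive DCs reversed between the tissues, 9.26-fold higher in CD103+ in lamina propria (1.5e-05) and 3.67-fold higher in double-positive DCs in lymph node (0.0042). The latter call was lost without any of 5 of the 6 libraries (adjusted p up to 0.026).

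Samd9l (r = 0.933) and Nrp1 (0.921), which encodes neuropilin-1, were among the genes with patterns most like that of Ccr2. Among monocyte markers, Ly6c2 averaged 14.0 CPM in LP CD11b+ and 57.6 in LN CD11b+ DCs, while F13a1, which was not called, averaged 20.6 and 3.43 CPM. Of the 5 monocyte markers 3 were called higher and 1 lower in LN CD11b+ DCs, and their part in Ccr2 was not tested.

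Cx3cr1, the receptor of the membrane-bound chemokine CX3CL1, was highest in CD11b+ DCs of both tissues and was called in no tissue comparison. LP CD11b+ libraries had 43.9, 37.3 and 51.8 CPM and LN CD11b+ libraries 69.3, 35.7 and 68.6. Double-positive libraries had 8.12, 5.19 and 4.71 CPM in lamina propria and 6.45, 4.15 and 5.94 in lymph node. CD103+ DCs were near the limit of detection, between 0.366 and 0.938 CPM and between 0.263 and 1.04. The ranges overlapped between the tissues in every subset. The log2 change was 0.38 ± 0.31 (SE, adjusted p = 0.37), 0.06 ± 0.48 (0.93) and -0.13 ± 0.34 (0.77) in CD11b+, CD103+ and double-positive DCs, and the F test of a difference between these missed the threshold (0.64).

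By subset, Cx3cr1 was 69.3-fold lower in CD103+ (adjusted p = 7.6e-09) and 7.39-fold lower in double-positive (3.1e-05) than in CD11b+ DCs of the lamina propria, and 86.8-fold (2.4e-09) and 10.5-fold lower (8.6e-07) in lymph node. Double-positive DCs exceeded CD103+ DCs by 9.38-fold in lamina propria (7.4e-06) and 8.25-fold in lymph node (4.4e-05). Its pattern was nearest to Clec4a3 (r = 0.979), a C-type lectin of myeloid cells, Sirpb1a (0.972) and Klri2 (0.965). Cx3cr1 is also a receptor of macrophages, of whose 11 markers tested 7 were called lower and 1 higher in LN than in LP CD11b+ DCs. The higher one was Siglec1, at 20.5 CPM in LN and 0.495 CPM in LP CD11b+ DCs. Neither Fcgr1 (9.79 CPM in LP and 5.28 in LN), which encodes the CD64 that the gate excludes, nor Adgre1 (95.4 and 169 CPM) was called. The part of macrophages in Cx3cr1 was not tested.

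Counted over the receptors, 7 of 9 were called different between CD103+ and CD11b+ DCs of the lamina propria (15.7% of all genes), 6 between double-positive and CD11b+ (4.81%) with 6 more called for double-positive against CD103+ DCs (13.6%). The counts of the same 3 pairs in lymph node were 7 (25.9%), 5 (16.7%) and 6 (6.53%). Ccr7 was the only receptor that CD11b+ DCs had less of in those comparisons of both tissues. The tissue effects of 5 receptors differed in the F test (31.5% of all genes), and pairwise 5 differed between CD103+ and CD11b+ (18.5%), 3 between double-positive and CD11b+ (11.6%) and 3 between double-positive and CD103+ DCs (8.37%). The first of these fell from 5 to 3, with Ccr2 and Cxcr6 lost, without the 2 lymph node libraries that carried both Xist and Ddx3y.

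Between receptors, levels were compared as CPM per kb of exon. Ccr1 led in LP double-positive DCs at 234 ± 21.7 CPM per kb (SD, n = 3), 71.9% of the summed level of the 9, and in LP CD11b+ DCs at 159 ± 29.95 (58.3%), where Ccr2 followed at 50.9 ± 9.06. LP CD103+ DCs were led by Ccr7 at 74.1 ± 13.7 (74.2%), then Ccr9 at 12.3 ± 1.09. Ccr7 led every lymph node group, at 795 ± 240.3 CPM per kb in CD11b+ (79.55%), 5731 ± 529 among CD103+ (99.5%) and 4563 ± 511 among double-positive DCs (98.4%). Cxcr6 and Ccr6 were at 92.3 ± 22.7 and 49.6 ± 4.15 in LN CD11b+ DCs. They were lower in LN double-positive (23.5 ± 0.62 and 19.1 ± 0.75) and LN CD103+ DCs (6.70 ± 2.78 and 6.39 ± 1.18).

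**Figure D4:**
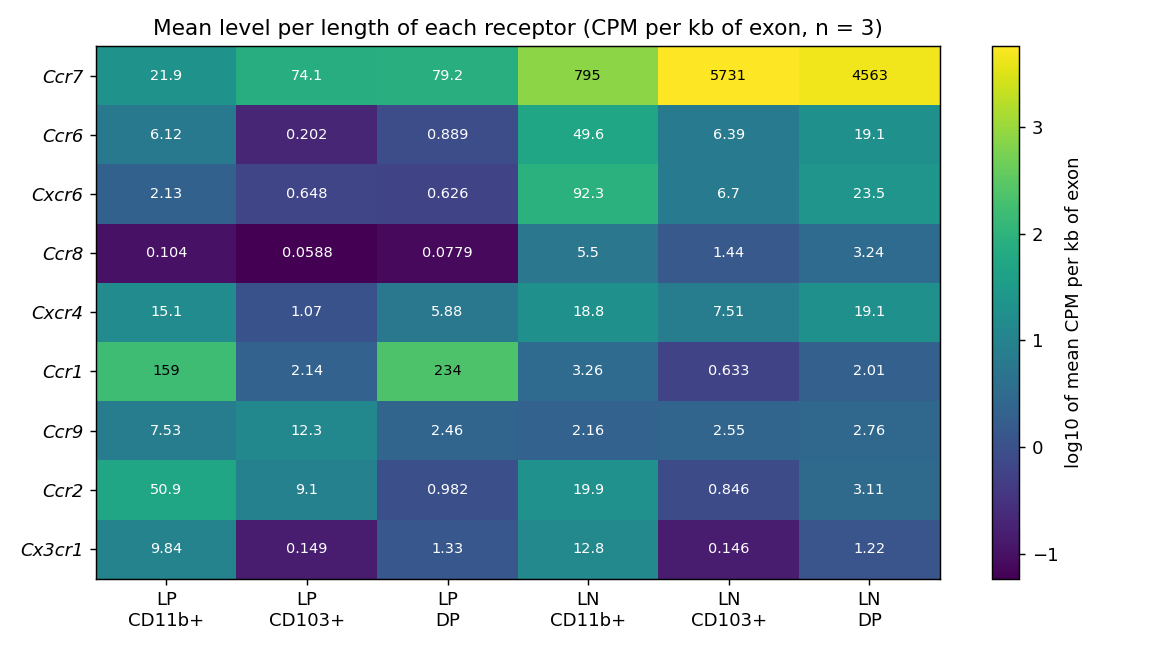
Mean level of each receptor in CPM per kb of exon in the 6 groups, 3 libraries each, coloured by its log10. Ccr1 leads in LP CD11b+ (159) and LP double-positive DCs (234) and Ccr7 in the other 4 groups, up to 5731 in LN CD103+ DCs.

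The receptors can be set beside the rest of the chemokine system. Of 15 other chemokine receptor genes 13 were tested, and 4 were called higher and 2 lower in LN CD11b+, 3 and 4 in LN CD103+ and 5 and 1 in LN double-positive DCs, to be read against 10.3% and 4.93%, 19.8% and 15.1%, and 18.6% and 13.6% of all genes. Cxcr5, which guides cells to follicles, was higher in all 3, from 1.08, 0.137 and 1.33 CPM to 21.8, 9.64 and 13.9 in CD11b+, CD103+ and double-positive DCs. Ccr4 was too, but at no more than 2.37 CPM. Cxcr3 and Xcr1 rose in CD11b+ (log2 4.02 and 1.78) and double-positive DCs (3.43 and 1.55) and fell in CD103+ DCs (-2.57 and -3.84), where Xcr1 marks the subset. Ccrl2, a receptor that binds chemerin without signalling, resembled Ccr1 in being highest in LP double-positive (819 CPM) and LP CD11b+ DCs (469 CPM) and fell in both (-2.26 and -1.14). Ccr10 reached 10.95 CPM in LN CD11b+ DCs and was called in no tissue comparison.

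Of 17 ligand genes 15 were tested, with 4 higher and 2 lower in LN CD11b+, 6 and 2 in LN CD103+ and 5 and 3 in LN double-positive DCs, against the same shares of all genes. Ccl5, Cxcl16 and Cx3cl1 rose in all subsets. Ccl5, a ligand of CCR1, went from 12.2, 9.28 and 15.3 CPM to 605, 4707 and 2224 CPM. Cxcl16, the ligand of CXCR6, went from 144, 286 and 221 CPM to 379, 2257 and 2156, and Cx3cl1, the ligand of CX3CR1, from 7.83, 4.07 and 7.56 to 48.5, 106.6 and 66.3. Ccl2, the ligand of CCR2, fell in CD11b+ and double-positive DCs (log2 -1.51 and -1.39) and rose in CD103+ DCs (1.39), and Ccl6 fell in CD11b+ (-1.76) and rose in CD103+ DCs (2.17). Ccl3 rose in CD11b+ DCs (1.27), Ccl4 fell in CD103+ (-1.70) and double-positive DCs (-2.004), and Ccl9 rose in the same 2 subsets (4.95 and 2.97).

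Among 25 genes of signalling downstream of the receptors, 3 were higher and 2 lower in LN CD11b+, 5 and 11 in LN CD103+ and 6 and 6 in LN double-positive DCs. Against the shares of all genes given above, the counts of higher genes in CD11b+ and CD103+ DCs were near the background. Gng2, a G protein subunit, and Rgs14, a regulator of G protein signalling, fell in all 3 subsets, Gng2 by 1.15, 3.57 and 2.70 and Rgs14 by 1.39, 2.45 and 3.73 on the log2 scale in CD11b+, CD103+ and double-positive DCs. The receptor kinase gene Grk5 and the regulator Rgs16 rose in all 3, Grk5 by 1.30, 1.57 and 1.57 and Rgs16 by 3.74, 5.03 and 7.32. Rgs16 was near the limit of detection in lamina propria, at 0.153, 0.203 and 0.0243 CPM, so the size of its rise is uncertain. The median log2 change of the 25 genes was -0.06, -0.49 and -0.11, beside 0.03, 0.04 and 0.07 over all genes tested.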

How the data were processed

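The authors deposited raw read counts per gene, without normalization, in 1 table of 18 libraries. The submitters' processing notes name FastQC 0.11.7, STAR 2.6 and GRCm38. The labels give SMART-seq amplification. For its own DC libraries the study gives unique alignments only and counting by STAR without strand, which was taken to hold here. Reads that fit 2 genes are then lost and antisense genes are not separated. The labels give group and replicate.

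Symbols, positions and exon lengths came from GENCODE M21 (GRCm38), which named 54165 of 54232 identifiers, and promoters from RefSeq, with entries for all members but Ccr7. Counts were fitted with edgeR 4.0.16 (R 4.3.3): TMM scaling, filterByExpr, 1 mean per group over all 18 libraries, 12 residual degrees of freedom, quasi-likelihood tests with Benjamini-Hochberg adjustment. The call limits are those of the study's methods, where DESeq2 was used, and the F test of the tissue effects has no limit on fold. CPM used TMM-scaled totals, and SE came from the F statistic. Likeness was Pearson's r of log2 CPM (prior count 2). The code of the fit was checked on simulated counts with a single spread and few genes changed in a single group. That setting does not test the scaling, since many genes differ between these groups.

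Total counts of 23574292 to 46901985 make counting error small except where a receptor had few counts. Ccr8 had the fewest, in lamina propria. Libraries held 11 to 18 counts of Ccr6 in LP CD103+ DCs. For Cx3cr1 they held 17 to 23 in LP CD103+ and 6 to 25 in LN CD103+ DCs. Cxcr6 had 15 to 52 in LP double-positive and Ccr1 15 to 66 in LN CD103+ libraries. Replicates differed by a chi-square per gene of 14.9 to 64.9, so none was a duplicate. The numbers were taken to pair libraries where every same-numbered pair of 2 groups had a correlation of deviations over 0.1. This held for LP CD11b+ with LP CD103+ (r from 0.152 to 0.208) and LP CD103+ with LP double-positive DCs (0.125 to 0.189). It held for no other 2 groups. If both hold, LP CD11b+ and LP double-positive libraries are paired too, where r was 0.075 to 0.25. The reported fit had no term for pairing, and replicate blocks were alternatives.

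The members and lists were chosen with earlier results of these data known. The genes named beside the members were the listed receptors, ligands and signalling genes called in all 3 tissue comparisons or in opposite directions, the receptors and ligands with a group mean of at least 10 CPM, and the 3 genes most like each member. Some genes that these rules select are not reported here. Ccl19 and Ccl21a each matched more than 1 identifier and were not tested. Alternatives were DESeq2 1.42.0 as scaling and as test, total counts, other filters on low counts, an adjusted p of 0.05, only the groups compared, replicate blocks and leaving out libraries.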

Additional observations from a re-analysis of the deposited data

Results flagged for a closer look

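For 5 of the 9 receptors the change from lamina propria to lymph node differed between the DC subsets by the F test of edgeR, as for 31.5% of all genes tested, and the cause was not tested. Ccr1 (adjusted p = 4.2e-07) fell in every subset, least in CD103+ DCs (log2 -1.76). Ccr2 (1.5e-05) fell in CD11b+ and CD103+ DCs and rose in double-positive DCs (1.66). Ccr9 (6.1e-05) fell in CD11b+ (-1.80) and CD103+ DCs (-2.27) and was not called in double-positive DCs (0.16). Cxcr4 (0.00037) was called in CD103+ and double-positive DCs, and Ccr6 (0.00082) rose least in CD11b+ DCs (3.02). With 3 libraries per group, no library was tested for standing apart from its group.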

How the results depend on the processing

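All 22 calls of a receptor between tissues kept their direction under every alternative, and calls were lost for Ccr2 alone, as given with its values. Without the 2 lymph node libraries that carried both Xist and Ddx3y 21 were kept. Differences near 0 that were not called changed sign: under total counts Cx3cr1 was -0.16 in CD103+ and Ccr9 -0.0073 in double-positive DCs, and with single libraries left out Cx3cr1 ran from -0.45 to 0.41 in CD103+ and from -0.27 to 0.15 in double-positive DCs. For the comparison "lamina propria, double-positive against CD11b+ DCs" 821 genes were called, 1289 at an adjusted p under 0.05 and 506 with only those libraries. For the "tissue effect, CD103+ minus CD11b+ DCs" 5 receptors were called, 3 with only those libraries, 3 without the 2 libraries named and 3 to 5 with single libraries left out, 3 being reached without LP CD11b+ replicate 3, LP CD103+ replicate 1 or 2, LN CD11b+ replicate 3 or LN CD103+ replicate 1 or 3. For the "tissue effect, double-positive minus CD11b+ DCs" 3 became 5 without a filter or at an adjusted p under 0.05, and 2 to 4 with single libraries left out. Spearman's rho kept 10 of the 27 most alike genes.

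Total counts moved the median log2 change of all genes from 0.03 to 0.17 in CD11b+, from 0.04 to -0.18 in CD103+ and from 0.07 to -0.10 in double-positive DCs between tissues, and from -0.13 to -0.56 between LN CD103+ and LN CD11b+ and from -0.08 to -0.44 between LN double-positive and LN CD11b+ DCs. The share of calls that were higher moved from 39.6% to 19.5% and from 41.3% to 19.3% in the last 2, and from 50.2% to 29.2% and 49.0% to 25.3% for the tissue effects of CD103+ and double-positive minus CD11b+ DCs.

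A replicate block changed no call of a receptor between tissues, nor in the 2 lamina propria pairs whose numbers paired. Elsewhere, where the pairing rule was not met by all groups, it brought the F test of Cxcr6 to an adjusted p of 0.0097. It also made Ccr1 differ between the tissue effects of double-positive and CD11b+ DCs (-1.24, adjusted p = 0.0068). LP CD11b+ with LP double-positive DCs missed that rule with r from 0.075 to 0.25. Depth limits Ccr8 in lamina propria most, and also the other groups with few counts named above.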
